A study of Homo sapiens with 4 samples.

Results

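RNA of the proteasome subunit genes was followed in MCF10A, an established line of human mammary epithelial cells that is not tumorigenic, in 4 sequenced libraries. They were taken by name: every gene called PSMA, PSMB, PSMC or PSMD followed by a number, without antisense names. This gave 40 of 25317 genes: 15 of the constitutive 20S core (8 alpha and 7 beta subunits), 3 inducible subunits of the immunoproteasome, 1 thymus-specific subunit, 20 of the 19S cap (6 ATPases and 14 other PSMD genes), and PSMC3IP, which bears a proteasome name but encodes a recombination factor. All cells had been given a lentivirus with a ZsGreen marker, which carried nothing further (EV), Zeb1, Snail or Ovol2, and the fluorescent cells were sorted 6 days later. Zeb1 and Snail are repressors that push epithelial cells towards a mesenchymal state, and Ovol2 acts in the opposite direction. Each group was 1 library, so no spread between replicates exists, no test was possible, and every difference below describes 2 libraries. The labels used here do not give the promoter that drives the factors or the number of cultures pooled.

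The proteasome is the protease that degrades ubiquitin-tagged proteins. Its 20S core is a barrel of alpha rings, which gate entry, around beta rings, of which PSMB5, PSMB6 and PSMB7 are the catalytic subunits. The 19S cap docks on the barrel, binds and removes ubiquitin, and unfolds the substrate with a ring of PSMC ATPases. In cells stimulated by interferon, and constitutively in many immune cells, PSMB8, PSMB9 and PSMB10 are built into new barrels in place of PSMB5, PSMB6 and PSMB7 respectively, giving the immunoproteasome, which favours peptides that fit MHC class I molecules. Core and cap genes are known to be raised together by NFE2L1 when proteasome activity falls short.

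Promoters are shown for PSMB3, the core gene with the highest ratio in Ovol2, and for the 3 inducible subunits. They are the 250 bases before the transcription start in RefSeq on GRCh38.p14, which held promoters for 35 of the 40 genes; the study itself used hg19. Capitals mark matches, on either strand, to any of 3 motifs: CCAAT (bound by NF-Y), TGACNNNGC (a form of the antioxidant response element) and GAAA followed after any 2 bases by a second GAAA (a form of the interferon-stimulated response element, ISRE). No marked matches overlap in these 4 windows.
PSMB3, chr17:38752491-38752740, plus strand: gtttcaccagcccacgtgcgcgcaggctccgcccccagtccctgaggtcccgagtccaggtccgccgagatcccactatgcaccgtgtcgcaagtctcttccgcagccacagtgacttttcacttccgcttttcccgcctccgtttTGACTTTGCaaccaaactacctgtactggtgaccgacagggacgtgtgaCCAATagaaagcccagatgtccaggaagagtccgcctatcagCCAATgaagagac
PSMB8, chr6:32844680-32844929, minus strand: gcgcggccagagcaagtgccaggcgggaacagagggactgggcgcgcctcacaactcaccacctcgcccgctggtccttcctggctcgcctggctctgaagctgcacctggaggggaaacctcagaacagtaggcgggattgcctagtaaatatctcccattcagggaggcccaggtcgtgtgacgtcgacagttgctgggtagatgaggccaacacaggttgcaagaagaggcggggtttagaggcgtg
PSMB9, chr6:32853942-32854191, plus strand: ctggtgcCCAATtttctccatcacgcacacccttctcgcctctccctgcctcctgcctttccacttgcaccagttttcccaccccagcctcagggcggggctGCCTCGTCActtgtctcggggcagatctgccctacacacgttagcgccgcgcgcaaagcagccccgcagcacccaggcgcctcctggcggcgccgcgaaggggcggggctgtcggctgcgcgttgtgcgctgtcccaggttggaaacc
PSMB10, chr16:67936851-67937100, minus strand: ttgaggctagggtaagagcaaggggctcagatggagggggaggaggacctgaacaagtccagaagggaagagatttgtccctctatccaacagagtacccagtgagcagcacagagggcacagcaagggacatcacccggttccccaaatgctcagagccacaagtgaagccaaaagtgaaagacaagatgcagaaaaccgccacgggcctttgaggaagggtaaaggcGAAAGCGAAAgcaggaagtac

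PSMB3 held CCAAT at -55 to -51 and at -13 to -9, counted from the start site, and TGACNNNGC at -104 to -96. PSMB10 held the ISRE form at -21 to -12. PSMB9 held CCAAT at -243 to -239 and, on the minus strand, TGACNNNGC at -148 to -140, and PSMB8 held no match. CCAAT was found in 5 of 11 core promoters and 9 of 19 cap promoters, and in 33.0% of all 27305 promoters. TGACNNNGC was found in 1 of 11 core and 4 of 19 cap promoters (11.0% of all), and the ISRE form in 2 of 11 and 0 of 19 (3.07% of all). A match describes the letters only. PSMB8 and PSMB9 lie in the MHC region of chromosome 6, and the RefSeq start of PSMB9 is 488 bases from that of TAP1, which is read in the other direction. PSMB10 lies on chromosome 16.

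Values are FPKM, in which fragments are divided by the gene's length and the library's total, a scale on which different genes can be set side by side. Ratios are log2 of (FPKM + 1) in the factor library over (FPKM + 1) in EV, for genes that reached 1 FPKM in at least 1 library of the pair. A gene was called higher or lower at 2-fold, and 1.5-fold is given beside it. Depth, read from the smallest steps between values, was about 24100000 fragments in Ovol2, the shallowest library, to 34300000 in Zeb1. The FPKM of all genes summed to 374267 in EV, 290694 in Zeb1, 357476 in Snail and 555645 in Ovol2. RMRP and RPPH1, short RNAs of RNases, took 18.7 to 24.6% of the FPKM in EV, Zeb1 and Snail and 40.6% in Ovol2. The delivered factors were each highest in their own library (ZEB1 at 17.3, SNAI1 at 99.7 and OVOL2 at 78.3 FPKM). KRT5, the keratin of basal cells, was at 2929 FPKM in EV and 215 to 2022 in the others. All 6 basal and 4 general epithelial markers examined were lower in Zeb1 and in Ovol2 than in EV. In Snail only KRT14, at 204 against 195 in EV, and KRT8, at 147 against 102, were higher. The other markers of these lists were lower there, EPCAM by the most, at 0.683 against 6.61. Of 7 leukocyte markers, 6 were below 1 FPKM in every library, with CD3E at 0 throughout and PTPRC at no more than 0.0177, while the other, CD14, was at 1.46 in EV, 17.0 in Zeb1, 0.828 in Snail and 2.49 in Ovol2. In RNA pooled from a sorted population, fewer cells of a kind and less RNA per cell cannot be told apart.

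In EV the 14 expressed core genes ran from PSMB2 at 13.3 to PSMB4 at 140 FPKM, both noncatalytic beta subunits, with a median of 70.8. Within the alpha ring PSMA7 was highest at 123 and PSMA5 lowest at 23.3. The 20 cap genes had a median of 28.9 FPKM and ran from the ATPase PSMC1 at 5.39 to PSMD2, a scaffold of the cap's base, at 101. PSMC3 was the highest ATPase at 38.6 and PSMD5, an assembly chaperone, the lowest PSMD gene at 10.4. PSMC1 has 13 named pseudogenes in GENCODE, and the labels do not say how shared reads were assigned, so its level is uncertain. The inducible subunits were far lower than their partners: PSMB8 at 17.1, PSMB10 at 13.2 and PSMB9 at 1.98 FPKM against 70.0 for PSMB5, 79.0 for PSMB7 and 64.1 for PSMB6. PSMA8, the testis form of an alpha subunit, did not pass 0.0278 FPKM in any library and PSMB11, the thymic subunit, not 0.0725; both were left out of the ratios, so 38 of 40 members were compared.

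**Figure D1:**
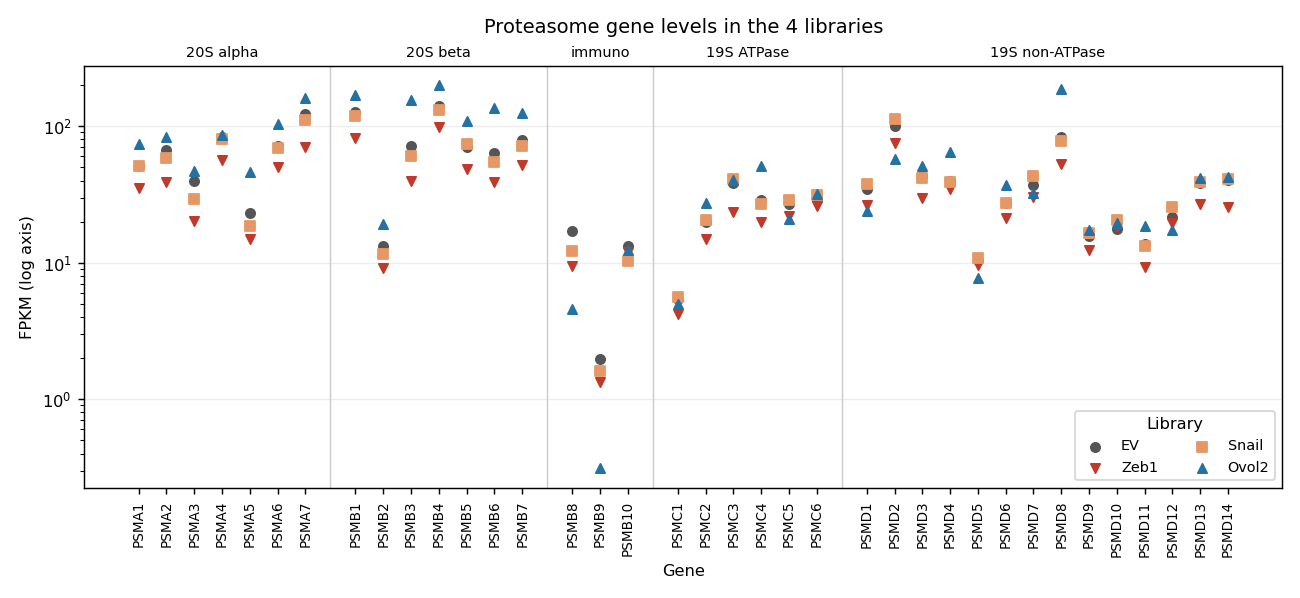
FPKM (log axis) of the 37 proteasome subunit genes that reached 1 FPKM, 1 point per library. All 14 core genes have their lowest point in Zeb1 and their highest in Ovol2, while PSMB8 and PSMB9 are lowest in Ovol2.

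The order of the libraries was the same for nearly all of the core. All 14 expressed core genes were lowest in Zeb1 and highest in Ovol2, and 12 of them ran Zeb1, Snail, EV, Ovol2. Among the 4468 genes at 5 FPKM or more in all libraries, 27.1% were lowest in Zeb1 and highest in Ovol2. That share takes in genes of all lengths, while core transcripts are short and ratios varied with length, as given below. Against the median of genes of like length, 11 of the 14 core genes were higher in Ovol2 and all 14 lower in Zeb1. The cap was mixed: 14 of 20 genes were lowest in Zeb1 and 5 in Ovol2, and 11 were highest in Ovol2 and 9 in Snail. The inducible subunits were all highest in EV, with PSMB8 and PSMB9 lowest in Ovol2 and PSMB10 lowest in Snail. The summed FPKM of the cap over that of the core was 0.656 in EV, 0.768 in Zeb1, 0.746 in Snail and 0.525 in Ovol2.

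With Zeb1, core and cap genes were lower than in EV by small amounts. The core median was -0.61, with all 14 genes below 0, beside a median of -0.09 and 55.9% of genes below 0 among all 11922 compared. No member reached 2-fold in either direction, where 8.49% of all genes were lower and 4.52% higher. At 1.5-fold, 12 of 38 members were lower and 0 higher, against 21.3% and 12.3% of all genes. Of all genes called at 2-fold, 34.8% were higher; this share was 48.1% after centring on the median of well expressed genes and 62.7% after rescaling without RMRP and RPPH1. The 12 comprised 8 core genes, 3 cap genes and PSMB8.

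Of the alpha subunits, PSMA3 was the lowest, at 20.1 FPKM in Zeb1 against 39.4 in EV (-0.93), with Snail at 29.1 and Ovol2 at 47.3. PSMA7 stood at 70.6 against 123 (-0.79) and PSMA2 at 38.9 against 67.2 (-0.77), and PSMA1 and PSMA6 were nearest to EV (both -0.50). Of the beta subunits, PSMB3 was at 39.7 against 72.2 FPKM (-0.85) and PSMB4 at 98.4 against 140 (-0.50). The ratios of the catalytic subunits PSMB6 (-0.69), PSMB7 (-0.59) and PSMB5 (-0.52) lay between these 2. No single subunit of the barrel stood apart: the range over 14 genes was -0.93 to -0.50.

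The cap had a median of -0.37, with 19 of 20 genes below 0. PSMC3 was the lowest ATPase, at 23.6 against 38.6 FPKM (-0.68), and PSMC6 the nearest to EV, at 26.1 against 29.3 (-0.16). PSMD14, the deubiquitinase of the cap, was at 25.4 against 40.7 FPKM (-0.66). PSMD8 of the lid was at 53.2 against 82.8 (-0.63). PSMD10, the assembly chaperone gankyrin, was the only member above EV, at 18.4 against 17.6 FPKM (0.06). It is not part of the finished cap, nor are the chaperones PSMD5 (-0.11) and PSMD9 (-0.31).

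These Zeb1 ratios moved with the scale and with transcript length. With each library rescaled to its sum without RMRP and RPPH1 the core median was -0.30 and the cap median -0.06, with 7 of 20 cap genes above 0. Across all genes the Zeb1 ratio was higher for longer transcripts (Spearman's rho 0.310 over 11706 genes, which are not replicates), and core transcripts are short, with a median of 1029 bases against 2955 for all compared genes. Taking off the median of genes of like length left the core and cap medians both at -0.27, so the gap seen as deposited was absent. With a gene's median coding transcript as its length they were -0.43 and -0.21. All 14 core genes stayed below 0 under each of the 5 rescalings tried. What sets this length trend was not tested.

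**Figure D2:**
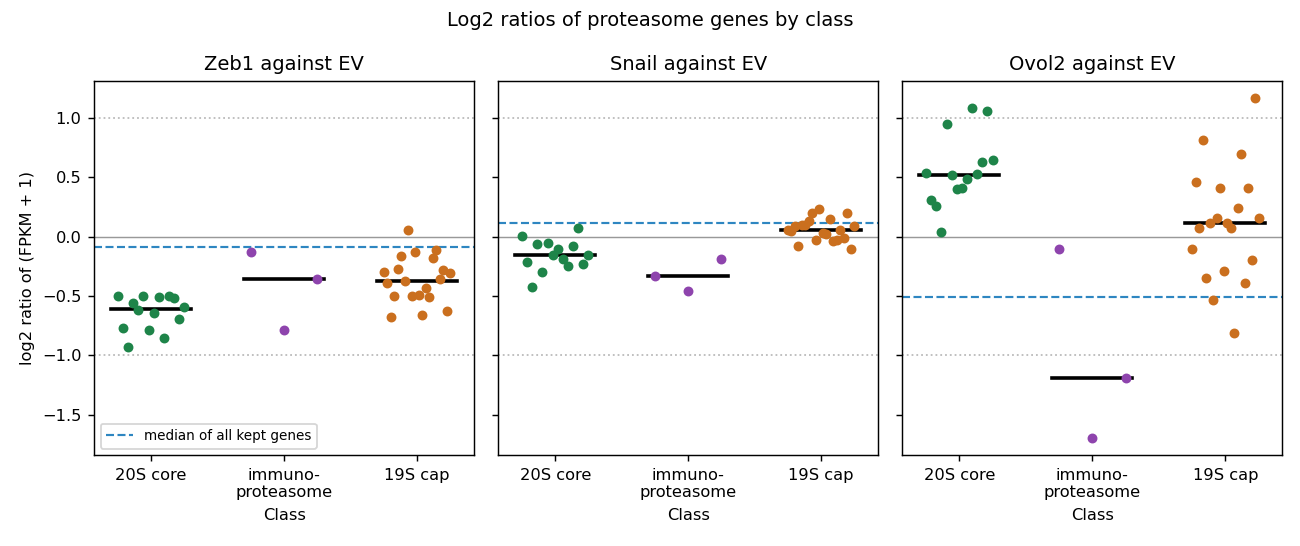
Log2 ratios of each proteasome gene (points) by class, 1 panel per factor; black bars are class medians, the dashed line is the median of all compared genes, and dotted lines mark 2-fold. With Ovol2 the core median is at 0.52 and the immunoproteasome median at -1.19, on opposite sides of the all-gene median of -0.51. This immunoproteasome median is the value of PSMB9, which has about 6 fragments in Ovol2.

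With Snail, the proteasome stood close to EV. No member reached 2-fold in either direction, where 1.00% of all 11644 genes were higher and 1.5% lower, and none reached 1.5-fold, where the shares were 4.59% higher and 4.36% lower. The core median was -0.15, with 12 of 14 genes below 0, and the cap median 0.06, with 14 of 20 above 0, beside an all-gene median of 0.12 with 67.6% above 0. Of all genes called at 2-fold, 40.1% were higher, and 23.7% after centring, which shifted the all-gene median by -0.14. Once centred, all 14 core genes lay below 0 (median -0.29) and 4 of 20 cap genes above it. Snail ratios too were higher for longer transcripts (rho 0.298 over 11445 genes). After the length correction the core median was -0.16 and the cap median -0.05, with 7 of 20 cap genes above 0.

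PSMA3 was again the lowest core gene, at 29.1 FPKM in Snail against 39.4 in EV (-0.42), and PSMB5 the highest, at 73.5 against 70.0 (0.07). Among the beta subunits PSMB3 was lowest, at 60.4 against 72.2 (-0.25), and PSMA1 was the highest alpha subunit, at 51.3 against 50.8 (0.01). In the cap, ratios ran from -0.10 for PSMD8 to 0.23 for PSMD12, a lid subunit at 25.4 against 21.5 FPKM. The ATPases ran from PSMC4 (-0.08) to PSMC5 and PSMC6 (both 0.10). Of the inducible subunits, PSMB8 was at 12.2 against 17.1 FPKM (-0.46), PSMB10 at 10.3 against 13.2 (-0.33) and PSMB9 at 1.61 against 1.98 (-0.19).

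With Ovol2, the constitutive core was higher than in EV while 2 of the 3 inducible subunits were lower. The core median was 0.52 with all 14 genes above 0, beside an all-gene median of -0.51 with 28.1% above 0 among 11812 genes. Of 38 members, 3 were higher by 2-fold (PSMD8, PSMB3 and PSMB6), where 6.82% of all genes were, and 2 were lower (PSMB8 and PSMB9), where 25.1% were. At 1.5-fold, 8 members were higher (12.7% of all genes) and 3 lower (46.1% of all genes). Of all genes called at 2-fold, 21.4% were higher, against 32.8% after centring and 54.7% after the length correction.

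PSMB3, which has a structural place in the beta ring, was at 155 FPKM in Ovol2, 72.2 in EV, 60.4 in Snail and 39.7 in Zeb1, a log2 ratio of 1.09 in Ovol2. PSMB6, the caspase-like catalytic subunit, was at 135, 64.1, 54.5 and 39.3 in the same order (1.06). The other catalytic subunits, PSMB7 at 125 against 79.0 (0.65) and PSMB5 at 109 against 70.0 (0.63), did not reach 2-fold. PSMB1 had the lowest beta ratio, at 170 against 128 FPKM (0.41). The alpha ring had a median of 0.40, against 0.63 for the beta ring. It ran from PSMA4, at 86.2 against 83.7 (0.04), to PSMA5, at 45.9 against 23.3 (0.95). After the length correction, given below, PSMA4 was at 0.85 and PSMA3 was the lowest alpha subunit at -0.26.

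As deposited, the cap median was 0.12, with 13 of 20 genes above 0, and after the length correction it was 0.35, with 17 of 20 above 0. PSMD8, a lid subunit, was at 187 FPKM in Ovol2, 82.8 in EV, 77.4 in Snail and 53.2 in Zeb1 (1.17). At the other end PSMD2 was at 57.3 in Ovol2 against 101 in EV (-0.81), and PSMD1, the other large scaffold of the base, at 23.8 against 34.7 (-0.53). The ATPases ran from PSMC5, at 20.9 against 26.8 FPKM (-0.35), to PSMC4, at 51.3 against 28.6 (0.82). The ubiquitin receptor PSMD4 was at 64.9 against 39.6 (0.70), and the deubiquitinase PSMD14 at 42.8 against 40.7 (0.07). Within the ATPase ring PSMC4 and PSMC5 stood on opposite sides of EV also after the length correction, at 0.76 and -0.41. In the lid PSMD12 was at -0.29 as deposited and at 0.51 corrected, with PSMD8 at 1.17 and 1.11.

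Transcript length and scale both touch the Ovol2 values. Ratios of all genes were lower for longer transcripts (rho -0.489 over 11610 genes), and within the 20 cap genes rho was -0.454, given as a description since the points share both libraries. PSMD2 and PSMD1 are long for the cap, at 3449 and 3326 bases. The length correction takes off the median ratio of genes of like length. It gave a core median of 0.32 with 11 of 14 genes above 0, close to the cap median of 0.35, so the gap between core and cap seen as deposited was absent. PSMB3 was then at 0.57 and PSMB6 at 0.54. The 4 members past 2-fold higher were PSMA5 (1.62), PSMD11 (1.14), PSMD8 (1.11) and PSMC2 (1.02), where 9.58% of all genes were. With a gene's median coding transcript as its length instead, the core median was 0.68 with 14 of 14 above 0 and the cap median 0.41 with 16 of 20 above 0. Rescaling without RMRP and RPPH1 gave 0 members higher, where 569 of all compared genes were. The core median was then 0.30 with 13 of 14 genes above 0, and the cap median -0.10.

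**Figure D3:**
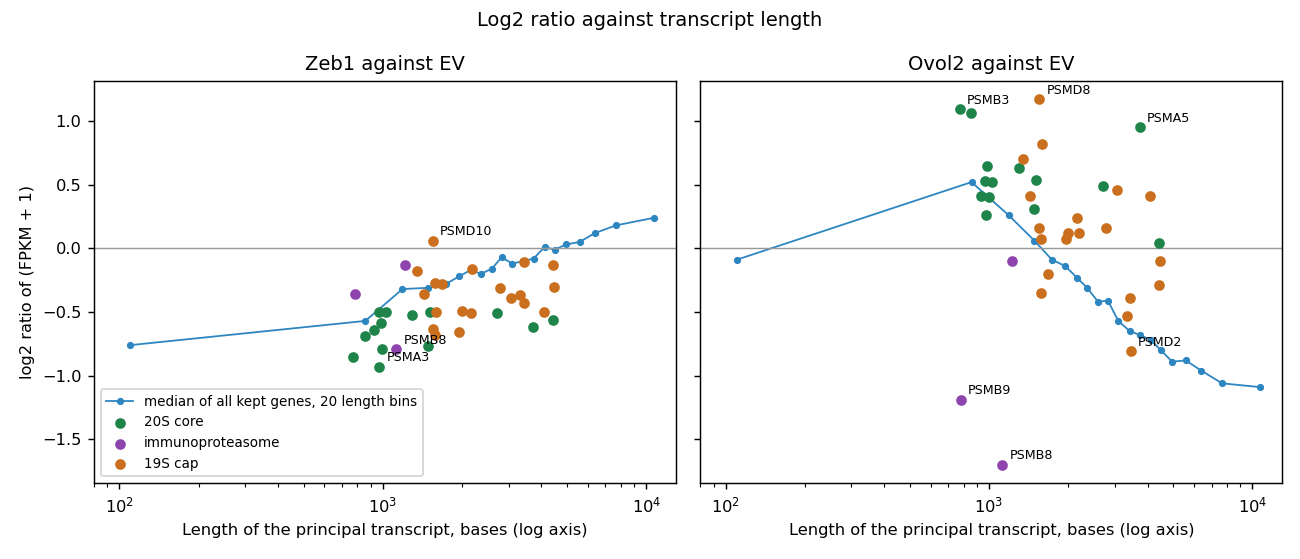
Log2 ratio of each proteasome gene against the length of its principal transcript in GENCODE (log axis), for Zeb1 and Ovol2; the line joins the medians of all compared genes in 20 length bins. In Ovol2, 11 of 14 core genes lie above the median of their own length bin, whereas PSMB8 and PSMB9 lie below it, at -1.96 and -1.71 from it.

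Of the inducible subunits, PSMB8 and PSMB9 were lower in Ovol2 and PSMB10 was close to EV. PSMB8, the counterpart of PSMB5, was at 4.55 FPKM in Ovol2, 17.1 in EV, 12.2 in Snail and 9.47 in Zeb1. EV was highest and Ovol2 lowest, with a plain ratio of 0.266 and a log2 ratio of -1.70 that lay between -1.96 and -1.53 under the settings tried. PSMB9, the counterpart of PSMB6, was at 0.311 FPKM in Ovol2, 1.98 in EV, 1.61 in Snail and 1.33 in Zeb1. It passed the filter there only through EV. Its plain ratio in Ovol2 was 0.157, and the log2 ratio of -1.19 ranged from -2.34 with a pseudocount of 0.1 to -0.93 with correction by the median transcript length. PSMB10, the counterpart of PSMB7, was at 12.3 in Ovol2, 13.2 in EV, 10.3 in Snail and 12.0 in Zeb1 FPKM, and its ratio in Ovol2 was -0.10.

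Few fragments stand behind PSMB9. With transcript lengths from GENCODE and the depths above, PSMB9 had about 45 fragments in EV and 6 in Ovol2, which gives a 95% interval of 0.0561 to 0.378 for the plain ratio (exact binomial, counting error only). PSMB8 had about 559 and 123 fragments, with an interval of 0.217 to 0.323, and PSMB10 about 470 and 362, with 0.808 to 1.07. For Zeb1 the intervals were 0.484 to 0.633 for PSMB8, 0.426 to 1.08 for PSMB9 and 0.796 to 1.03 for PSMB10. For Snail they were 0.628 to 0.811, 0.521 to 1.28 and 0.681 to 0.894. A difference was thus not detectable at this depth for PSMB9 in Zeb1 or Snail, or for PSMB10 in Zeb1 or Ovol2. The antisense gene PSMB8-AS1 overlaps exons of PSMB8 on the opposite strand and exons of PSMB9 on the same strand. It stood at 7.58 FPKM in EV, 4.57 in Zeb1, 5.49 in Snail and 2.08 in Ovol2. No label gives the strand setting of the counting, so reads of PSMB8 and PSMB8-AS1 may not have been separated. Where PSMB9 and PSMB8-AS1 overlap, strand could not separate their reads under any setting.

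A ratio within 1 library does not depend on how libraries are scaled. PSMB8 stood at 24.4% of PSMB5 in EV, 19.5% in Zeb1, 16.6% in Snail and 4.19% in Ovol2, so that the EV ratio was 5.83 times that in Ovol2. PSMB9 stood at 3.09% of PSMB6 in EV, 3.37% in Zeb1 and 2.96% in Snail, against 0.231% in Ovol2, and here the EV ratio was 13.4 times as high. PSMB10 stood at 16.8% of PSMB7 in EV, 23.0% in Zeb1, 14.5% in Snail and 9.87% in Ovol2. All 3 inducible subunits were thus lowest against their constitutive partner in Ovol2, and PSMB10 was highest against its partner in Zeb1. Between class medians, the immunoproteasome minus the core came to -1.71 on the log2 scale in Ovol2, -0.18 in Snail and 0.25 in Zeb1. The immunoproteasome median in Ovol2 is PSMB9's own ratio (-1.19), which rests on about 6 fragments there and passed the filter only through EV. The other members were at -1.70 (PSMB8) and -0.10 (PSMB10).

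**Figure D4:**
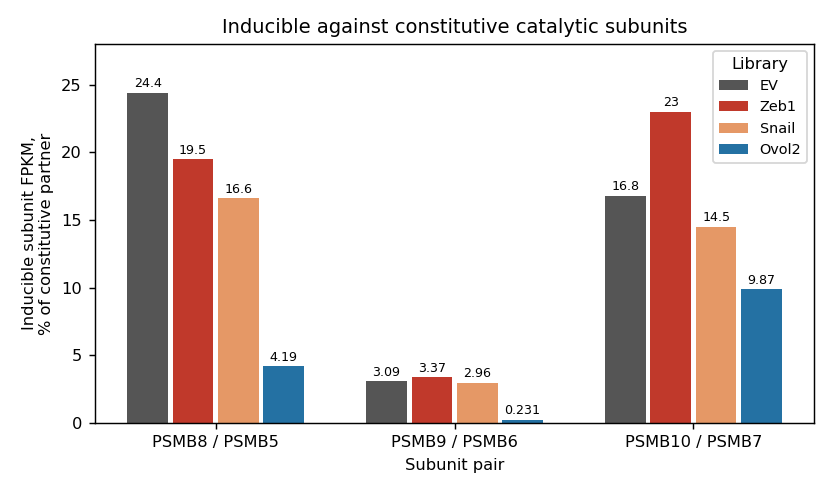
FPKM of each inducible catalytic subunit as a percent of the constitutive subunit it replaces, 1 bar per library, 3 pairs. PSMB8 is at 24.4% of PSMB5 in EV and 4.19% in Ovol2, and PSMB9 at 3.09% of PSMB6 in EV and 0.231% in Ovol2.

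Among 10 genes that induce the immunoproteasome or load its peptides, 5 were lower by 2-fold in Ovol2, where 25.1% of all genes were. IRF1, NLRC5 and ERAP2 passed the filter there only through EV. IRF1, an interferon-induced transcription factor that acts on PSMB9 and TAP1, was at 0.783 FPKM in Ovol2, 6.75 in EV, 4.22 in Snail and 7.49 in Zeb1 (-2.12 in Ovol2). The peptide transporter TAP1, which shares its start region with PSMB9, was at 5.98 in Ovol2, 19.9 in EV, 14.3 in Snail and 11.7 in Zeb1 (-1.58). Tapasin (TAPBP, -1.55), STAT2 (-1.53) and the peptide-trimming ERAP1 (-1.37) were the other 3. After the length correction IRF1 (-1.44), TAPBP (-1.41) and TAP1 (-1.01) were still past 2-fold, and STAT2 (-0.88) and ERAP1 (-0.48) were not. Among all genes 7.93% were lower by 2-fold after this correction. NLRC5 (0.30) and ERAP2 (0.05) were then above 0, and the other 8 below it. With Zeb1 this list was split, with STAT2 higher, at 39.5 against 14.2 FPKM (1.41), and the transporter TAP2 lower, at 4.83 against 13.3 (-1.29). With Snail no gene of it reached 2-fold, and IRF1 was the largest at -0.57.

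**Figure D5:**
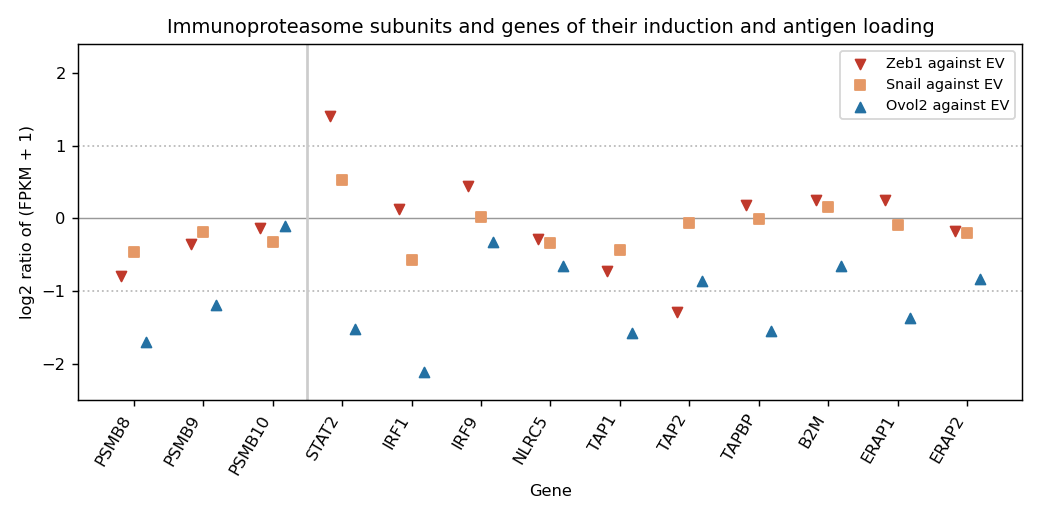
Log2 ratios of the 3 inducible subunits and of 10 genes of their induction and of antigen loading, 1 symbol per factor; dotted lines mark 2-fold. In Ovol2, 5 of the 10 genes lie past 2-fold on the lower side, whereas Zeb1 holds both STAT2 at 1.41 and TAP2 at -1.29.

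Over the 50 other genes of the pathway that were examined, 1 was higher and 11 lower by 2-fold in Ovol2, 2 higher and 2 lower in Zeb1, and 1 higher and 0 lower in Snail. Among all genes 6.82% were higher and 25.1% lower in Ovol2, 4.52% and 8.49% in Zeb1, and 1.00% and 1.5% in Snail. After the length correction 4 of the 11 were still lower by 2-fold (NFYB, IRF1, TAPBP and TAP1), so 4 of the 50, where 7.93% of all genes were. The gene higher was TXNL1 (1.81), which binds the cap, where 9.58% of all genes were higher. Of the activators, PSME1 and PSME2, which form the interferon-inducible ring that opens the barrel, were at 39.5 against 59.7 FPKM (-0.58) and 21.3 against 38.6 (-0.83) in Zeb1, and at -0.14 and 0.17 in Ovol2. PSME4, a nuclear activator with a transcript of 7099 bases, was at 5.01 against 13.9 FPKM in Ovol2 (-1.31), and at -0.25 after the length correction. Of the assembly chaperones, PSMG1 was at 9.94 against 21.6 in Zeb1 (-1.05), and all 6 of that list were below 0 there. In Ovol2 none of the 6 reached 2-fold, and PSMG3 led at 0.83.

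Among proteins that ride on the cap, KIAA0368 (ECM29), which holds core and cap together, was at 7.26 against 22.0 FPKM in Ovol2 (-1.48) and the ubiquitin ligase UBE3C at 15.9 against 33.7 (-1.04); corrected for length they stood at -0.42 and -0.15. Of the shuttle receptors and unfoldase partners only ZFAND2A, a stress-induced binder of the proteasome, reached 2-fold, at 9.59 against 4.03 in Ovol2 (1.08, or 0.56 corrected for length). Of 5 genes for ubiquitin and its activating enzymes, none reached 2-fold in any library. UBA6, an activating enzyme, had the largest ratio in size, at 8.05 against 14.1 FPKM in Ovol2 (-0.74). Corrected for length UBA6 was at 0.35, and UBB, a ubiquitin gene, was the largest at -0.87.

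Of 7 genes for transcription factors that act on proteasome promoters and for their processing, 3 were lower by 2-fold in Ovol2. Of all genes 25.1% were. NFE2L1 was at 27.3 FPKM in Ovol2, 75.9 in EV, 83.9 in Snail and 74.4 in Zeb1 (-1.44 in Ovol2), and its relative NFE2L2 at 11.1, 29.3, 26.8 and 31.1 (-1.33). Corrected for length these ratios were -0.56 and -0.92. All 7 genes were below 0 as deposited, as were 71.9% of all genes, and 4 of 7 after the correction, with DDI2 (0.26), NGLY1 (0.11) and NFYC (0.01) above 0. NFYB, a subunit of the CCAAT-binding NF-Y, was at 52.6 FPKM in Zeb1 (1.70), 35.3 in Snail (1.14), 15.5 in EV and 2.79 in Ovol2 (-2.12), the reverse of the order seen in 12 of 14 core genes. Its partners NFYA (0.01 in Zeb1, -0.86 in Ovol2) and NFYC (-0.24, -0.13) did not reach 2-fold. After the length correction NFYB was at 1.78 in Zeb1 and -1.47 in Ovol2. It was then the only gene of the 7 lower by 2-fold in Ovol2, where 7.93% of all genes were. The share of all genes with the library order of NFYB is not given here, and a link between NFYB and the core was not tested.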

How the data were processed

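RNA was sequenced from 1 library each of EV, Zeb1, Snail and Ovol2 cells. TopHat, Cufflinks, Cuffdiff and hg19 are listed, without versions or roles, in the submitters' processing notes. The authors deposited 3 tables, each with EV beside 1 factor, 25360 rows and no unit in the header. The deposited values were taken as FPKM from those tools and from their steps. The deposited tables also hold a signed fold and a Benjamini-Hochberg adjusted p-value from 1 value per side, used only as an alternative. Of the pathway lists and motifs first drawn up, 2 genes and 1 motif are not reported here.

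Rows of 1 symbol were summed (43 rows). Log2 ratios used a pseudocount of 1 FPKM, which understates low genes, and a filter of 1 FPKM. Lengths are those of the longest principal transcript in GENCODE release 29, and the length correction used 20 bins. Depth came from genes with 1 transcript and from ratios of values below 0.05 FPKM. The call rule was tested on simulated data. Named were the inducible subunits with their partners, members past 2-fold, the extremes of each class, and pathway genes past 2-fold or, failing that, the largest of a list; other members and genes were added after their values were seen. Members and lists were chosen with earlier results of these data known. Python 3.11.15, pandas 2.3.3, NumPy 2.4.6 and SciPy 1.17.1 were used.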

Additional observations from a re-analysis of the deposited data

How the results depend on the processing

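With 1 library per group no replicate could be left out. No paired analysis was possible because no group has a second replicate and no result comes from a test. Medians were counted as moved past 1.2-fold and counts past 1.5 times; 170 of the alternative values for counts and medians stayed within these bounds and 31 did not. No member past 2-fold changed sign under these settings. The correction by median transcript length was chosen after seeing the data; the others were planned.

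For Zeb1, 12 members were lower at 1.5-fold, and pathway genes came to 4 higher and 8 lower. With centring, upper quartile scaling, rescaling without RMRP and RPPH1, or either length correction, 1 pathway gene was lower. Rescaling gave medians of -0.30 (core) and -0.06 (cap), and the length correction -0.27 (core) and 0.12 (immunoproteasome). For Snail, 0 pathway genes were higher with centring, upper quartile scaling or the length correction. For Ovol2, members higher numbered 0 with rescaling, 6 with the median transcript length and 8 at 1.5-fold. Among all compared genes 569, 1362 and 1504 were higher under these settings. With a filter of 5 FPKM or the median transcript length 1 member was lower, and with the latter 1048 of all genes were. Pathway genes higher numbered 4 with centring, 0 with rescaling, 2 with the median transcript length and 5 at 1.5-fold. Those lower numbered 4 with the length correction (7.93% of all genes) and 6 with the median transcript length. At 1.5-fold 26 were lower (46.1% of all genes). The immunoproteasome median was -1.89 with a pseudocount of 0.1, -0.90 with a filter of 5 FPKM, which drops PSMB9, and -1.71 with the length correction. The cap median was 0.41 with the median transcript length. Why the length corrections differ was not tested.

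Cut-offs of 0.05 on the deposited adjusted p-value and 2-fold on the deposited fold were set here, not by the deposited tables. With them, 3 members were higher and 3 lower in Ovol2. In Zeb1 and Snail 0 were called in either direction. Among all genes, 998 were higher and 4445 lower of 11812 in Ovol2. The counts were 934 and 1575 of 11922 in Zeb1, and 233 and 390 of 11644 in Snail. The third lower member in Ovol2 is PSMC3IP, at 0.531 against 1.14 FPKM, whose plain ratio of 0.466 becomes -0.48 on the log2 scale with the pseudocount.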

Other observations

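All 4 antisense genes named after proteasome genes were lowest in Ovol2, and they differed in the library where they were highest. Of all compared genes 71.9% were below EV in Ovol2, and the share lowest there of all libraries is not given here. PSMD6-AS2 was below 1 FPKM in both EV and Ovol2 and so had no ratio there. PSMA3-AS1 was at 6.50 FPKM in EV, 8.79 in Zeb1, 8.89 in Snail and 2.54 in Ovol2, while PSMA3 was highest in Ovol2. PSMD5-AS1 was at 2.20 FPKM in EV, 3.76 in Zeb1, 2.39 in Snail and 1.17 in Ovol2, and PSMD6-AS2 at 0.799, 1.77, 0.605 and 0.197 in these libraries. PSMB8-AS1, at 2.08 FPKM in Ovol2, was highest in EV, as PSMB8 was. PSMC3IP, the recombination factor with a proteasome name, was at 1.14 FPKM in EV, 0.801 in Zeb1, 1.27 in Snail and 0.531 in Ovol2.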
